A study of Homo sapiens with 16 samples.

Results

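Transcript levels of 10 genes that set the threshold for apoptosis in melanoma cells were followed across 16 RNA-seq libraries: the pro-survival genes BCL2, BCL2L1 (BCL-XL), MCL1 and BCL2A1 (BFL-1), the BH3-only genes BCL2L11 (BIM), BBC3 (PUMA), PMAIP1 (NOXA) and BID, the effector BAX, and the inhibitor of apoptosis BIRC7 (livin). The genes were taken by symbol from the 28278 rows of every count file, and all 10 symbols were found. The libraries came from SKMEL28 and A375, established human melanoma cell lines that both carry an activating BRAF mutation. The study asked what the transcription factor TFE3 does beside its relative MITF. SKMEL28 gave a lone wild-type library (numbered replicate 4), 3 libraries of the line labelled MITFKO, called D2 in the study's design, and 3 libraries each of clones 3 and 13 of a double knockout (DKO). Both DKO clones were made with CRISPR-Cas9 in the D2 MITFKO line, so they share its MITF edit. A375 gave 3 wild-type and 3 TFE3KO libraries, and MITF was not edited in A375. Culture medium differed by line, RPMI for SKMEL28 and DMEM for A375, each with serum, and replicates were separate flasks of the same line or clone. Every p-value therefore measures the spread between cultures and not between independently edited clones.

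The BCL2 family decides whether the mitochondrial outer membrane stays closed. BAX and its relative BAK1 form pores that release cytochrome c, the pro-survival proteins hold them in check, and BH3-only proteins bind the pro-survival proteins or activate the effectors. In the melanocyte lineage MITF is known to drive BCL2A1, BIRC7 and BCL2, and TFE3 belongs to the same basic helix-loop-helix leucine zipper family and can bind the same E-box sequences. BBC3 and PMAIP1 are known to respond to the integrated stress response through ATF4 and DDIT3.

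Library totals ran from 17320855 to 31269126 counts. Levels are given as CPM, counts scaled to a common library size after trimmed-mean (TMM) normalisation, and changes as log2 fold changes with their standard error (SE) and Benjamini-Hochberg adjusted p from edgeR's quasi-likelihood test over all genes of a comparison. The TFE3 transcript was at 45.0 CPM in wild-type SKMEL28, at 72.3, 74.3 and 79.7 CPM in MITFKO, at 8.35, 8.77 and 11.8 CPM in clone 3 and at 43.6, 48.1 and 49.3 CPM in clone 13. It thus fell much further in clone 3 (log2 change -2.97) than in clone 13 (-0.68), and the clones differed by 2.29. In A375 it was at 114 to 125 CPM in wild type and at 10.9 to 12.2 CPM in TFE3KO (-3.36). The MITF transcript was at 539 CPM in wild type and at 481 to 542 CPM in the libraries labelled MITFKO, with an adjusted p of 0.516, so the transcript does not check that label. It was at 774 to 833 CPM in clone 3 and 850 to 969 CPM in clone 13, and in A375 it fell from 30.9 to 38.9 CPM to 17.1 to 18.6 CPM with the TFE3 edit. Of 6 melanocytic markers, all averaged at least 1 CPM in SKMEL28 except MLANA in clone 13, and 4 did so in A375, where the means of PMEL and MLANA were under 1 CPM. Leukocyte markers summed to at most 0.228 CPM and endothelial markers to at most 3.81 CPM in any library. Fibroblast markers summed to 45.1 CPM in wild-type SKMEL28, 51.9 to 61.9 in MITFKO, 102 to 109 in clone 3 and 76.0 to 89.0 CPM in clone 13, and to 1.62 to 2.47 CPM in A375 wild type and 3.21 to 4.95 CPM in TFE3KO. Keratinocyte markers, nearly all KRT14, summed to 0.533 CPM in wild-type SKMEL28, 0.310 to 0.953 in MITFKO, 1.09 to 1.20 in clone 3, 2.14 to 3.76 in clone 13, 17.2 to 18.3 in A375 wild type and 21.6 to 24.8 CPM in A375 TFE3KO. The part of these markers in differences between the groups was not tested. Replicate 2 of clone 13 stood apart, with a mean chi-square of 24.8 and 26.4 per gene against its partners, where all other pairs of replicates gave 3.25 to 7.83. The wild-type SKMEL28 file names alignment input 3 and 14 others name input 38, so genotype and alignment input cannot be told apart in comparisons with it.

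MITF and TFE3 bind E-boxes of the form CACGTG and, for MITF, CATGTG, so promoter windows of 300 bases around each RefSeq transcription start (250 before, 50 after, build GRCh38.p14) were searched on both strands. Windows were found for 9 of the 10 genes, 14 windows in all. CACGTG occurred in 7.256% of all 35116 windows, CATGTG or its reverse complement CACATG in 11.1%, and either in 17.62%. The longer forms TCATGTG (reverse complement CACATGA), which contains CATGTG, and the palindrome TCACGTGA, which contains CACGTG, occurred in 2.922% and 0.9796%. The 250 bases before the start of the 4 genes with such letters whose values are described at most length are printed 5′ to 3′ on the gene's strand, with the matches in capitals.
BCL2A1 (chr15:79971197-79971446, minus strand): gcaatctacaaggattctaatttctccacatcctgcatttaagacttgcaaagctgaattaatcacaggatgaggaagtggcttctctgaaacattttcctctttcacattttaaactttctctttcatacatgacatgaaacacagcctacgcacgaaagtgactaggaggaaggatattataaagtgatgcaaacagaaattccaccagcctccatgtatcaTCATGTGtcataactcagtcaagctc
BIRC7 (chr20:63235655-63235904, plus strand): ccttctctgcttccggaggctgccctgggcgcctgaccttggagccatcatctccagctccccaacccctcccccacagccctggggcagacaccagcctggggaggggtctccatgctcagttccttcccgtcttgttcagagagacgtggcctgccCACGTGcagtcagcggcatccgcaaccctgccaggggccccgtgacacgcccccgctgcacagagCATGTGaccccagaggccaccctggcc
BBC3 (chr19:47232668-47232917, minus strand): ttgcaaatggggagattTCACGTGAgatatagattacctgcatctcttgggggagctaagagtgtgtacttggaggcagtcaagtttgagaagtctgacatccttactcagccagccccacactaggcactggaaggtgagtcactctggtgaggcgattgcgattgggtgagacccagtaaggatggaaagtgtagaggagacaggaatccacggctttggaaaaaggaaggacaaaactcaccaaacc
BAX (chr19:48954625-48954874, plus strand): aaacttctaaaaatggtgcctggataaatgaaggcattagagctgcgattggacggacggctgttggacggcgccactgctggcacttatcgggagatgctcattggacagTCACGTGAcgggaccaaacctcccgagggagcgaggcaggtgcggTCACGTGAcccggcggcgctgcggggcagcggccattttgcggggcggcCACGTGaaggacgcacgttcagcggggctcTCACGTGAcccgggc
BCL2A1 held TCATGTG at position -26, counted back from the start. BIRC7 held CACGTG at -92 and CATGTG at -27, BBC3 held TCACGTGA at -233, and BAX held 4 CACGTG, 3 of them as TCACGTGA, the first at -139. Only 5 of the 35116 windows had 4 or more CACGTG and only 4 had 3 or more TCACGTGA. The windows of BCL2, BCL2L1, BCL2L11 and PMAIP1 held none of these letters. BID held CACGTG in 2 of its 5 windows, which overlap, so that both hold the same 1 site. It held CATGTG, on the other strand, in 1 window. A match is a description of the letters and not evidence of binding.

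Levels per kilobase of merged exon allow the genes to be set against each other. In wild-type SKMEL28 the order was led by BIRC7 at 126 CPM per kb, BCL2A1 at 93.7 and BAX at 38.7, followed by MCL1 at 30.2, and BCL2 was lowest at 1.32. In MITFKO the order was led by MCL1 at 71.9 ± 1.81 CPM per kb (SD, n = 3) and BCL2A1 at 65.1 ± 5.53, with BAX at 30.8 ± 1.04 and BIRC7 at 21.7 ± 1.23 next. MCL1 and BCL2A1 did not overlap there, 69.9 to 73.4 against 58.7 to 68.3. In clone 13 they did overlap, 60.1 to 79.9 for MCL1 and 60.01 to 75.5 for BCL2A1. A375 had another order: MCL1 at 133 ± 3.52, BAX at 96.5 ± 0.866 and BCL2L1 at 23.3 ± 1.68 CPM per kb led in wild type, and BIRC7 was last.

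**Figure D1:**
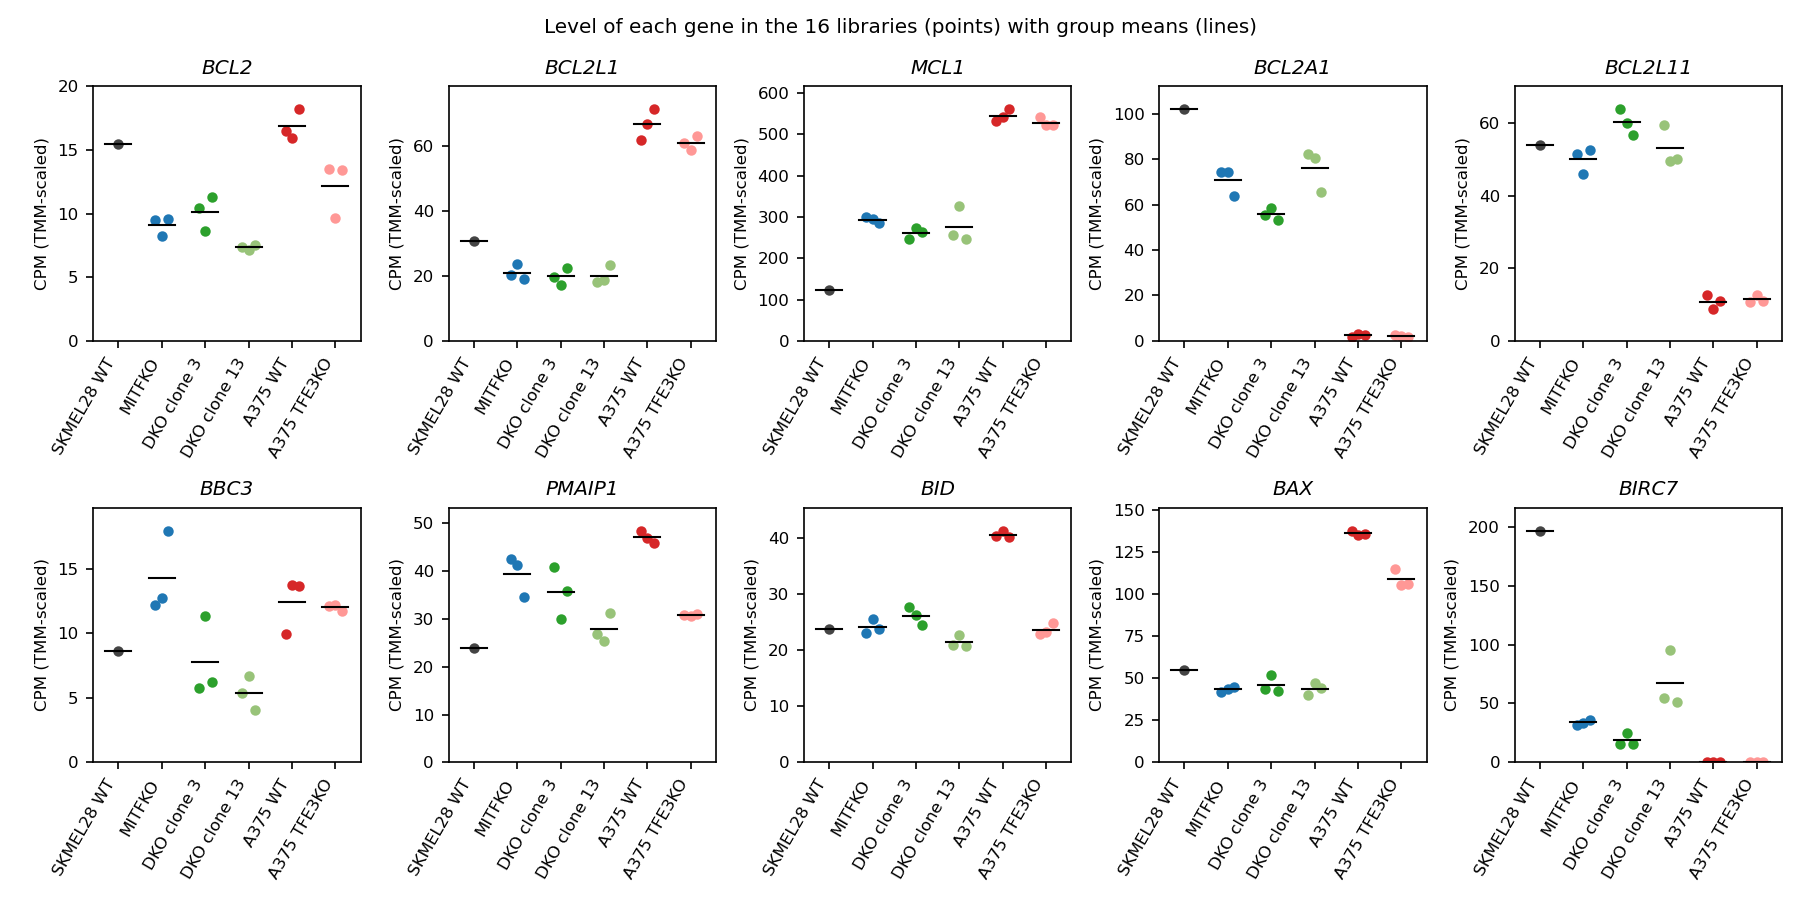
Level of each of the 10 genes (CPM, linear axes starting at 0) in each library (points, replicates 1 to 3 from left to right, replicate 4 alone for wild-type SKMEL28) by group, with the group mean as a line. BIRC7 stands at 197 CPM in wild-type SKMEL28 and at most at 0.223 CPM in A375, and MCL1 stands higher in all 9 edited SKMEL28 libraries than in the wild-type library.

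The first comparison, MITFKO against wild-type SKMEL28, asks what goes with the MITF edit. BIRC7, BCL2, BCL2L1, BCL2A1 and BAX fell, and MCL1 and PMAIP1 rose, so 7 of the 10 genes changed, 2 up and 5 down. The background was high: 48.6% of the 14605 genes tested were called in this comparison, 25.2% higher and 23.4% lower. For 9 of the 10 genes the wild-type library lay outside the range of MITFKO, as it did for 84.8% of all genes. Among the 4 pro-survival genes of the 10, 3 fell and only MCL1 rose. The wild-type group is 1 library, assumed in the model to vary like the other SKMEL28 groups.

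BIRC7 is known in melanoma as a lineage-restricted inhibitor of apoptosis. It was at 197 CPM in wild type and at 32.0, 33.7 and 35.8 CPM in MITFKO. The MITFKO libraries were close together and far below the wild-type library. BIRC7 fell to 17.2% of wild type, by 2.54 on the log2 scale (SE 0.354, adjusted p = 0.000969). In bulk RNA, fewer cells with a transcript and less transcript per cell cannot be told apart. The summed level of the 6 melanocytic markers moved in the same direction, from 13702 CPM to 5585 to 5802 CPM, most of it PMEL. MITF, 1 of the 6, was not called. The part of this sum in the fall of BIRC7 was not tested.

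BCL2A1 was at 102 CPM in wild type and at 74.3, 74.4 and 63.9 CPM in MITFKO. All 3 MITFKO libraries were lower. The log2 change was -0.52 (SE 0.115, adjusted p = 0.000603), so 69.5% of the wild-type level remained, against 17.2% for BIRC7. BCL2, the founding pro-survival gene, was at 15.5 CPM in wild type and at 9.53, 8.27 and 9.56 CPM in MITFKO. It fell by 0.76 on the log2 scale (SE 0.196, adjusted p = 0.00255). BCL2L1, which encodes pro-survival BCL-XL and a shorter pro-apoptotic isoform that gene counts do not separate, fell from 30.9 CPM to 20.4, 23.6 and 19.0 CPM, a log2 change of -0.56 (SE 0.167, adjusted p = 0.0085). The groups did not overlap for any of these 3 genes, as for 84.8% of all genes in this comparison.

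MCL1, a short-lived pro-survival protein whose level in cells is also set by ubiquitin ligases, went the other way. It was at 123 CPM in wild type and at 300, 295 and 285 CPM in MITFKO. The MITFKO libraries lay close together, all far above wild type. MCL1 rose 2.38-fold, a log2 change of 1.25 (SE 0.131, adjusted p = 7.27e-07). Annotated exons of ADAMTSL4-AS1 overlap MCL1 on the same strand, so reads from the shared stretch cannot be assigned to either gene.

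The BH3-only genes did not move together. PMAIP1, whose protein binds MCL1, was at 23.8 CPM in wild type and at 42.4, 41.3 and 34.6 CPM in MITFKO, and it rose 1.66-fold, a log2 change of 0.73 (SE 0.165, adjusted p = 0.00087). BBC3 was at 8.65 CPM in wild type and at 12.2, 12.8 and 17.9 CPM in MITFKO. All 3 libraries were above wild type, but the log2 difference of 0.72 (SE 0.349) had an adjusted p of 0.102 and was called only in alternative fits, with no filter on low counts (adjusted p = 0.0104) or with only these groups in the model (adjusted p = 0.00104). BCL2L11, which encodes an activator of BAX held down by ERK signalling, was at 53.8 CPM against 51.3, 46.0 and 52.6 CPM. BID, which links death receptors to mitochondria, was at 23.8 CPM against 23.0, 25.5 and 23.7 CPM. The 95% intervals of their log2 differences were -0.35 to 0.14 and -0.27 to 0.30. The effector BAX was at 54.7 CPM in wild type and at 42.1, 43.4 and 45.0 CPM in MITFKO. It fell by 0.33 (SE 0.123, adjusted p = 0.0304), a call that ended without MITFKO replicate 1 (adjusted p = 0.0721) or replicate 2 (adjusted p = 0.0584).

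**Figure D2:**
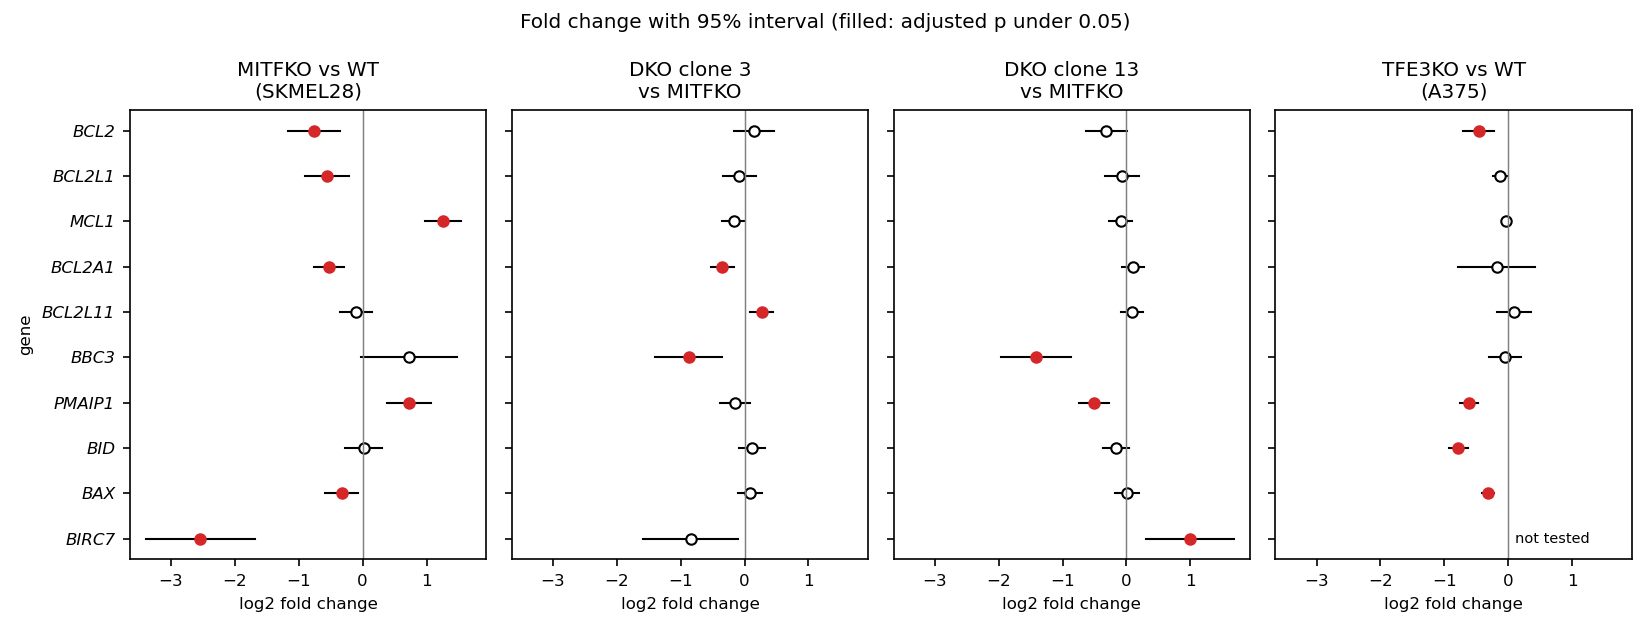
Log2 fold change (x axis, point) with its 95% interval (line) of each gene in 4 comparisons, filled where the adjusted p is under 0.05. MITFKO against wild type has 7 filled points and A375 has 4, all of the latter on the lower side, and the BIRC7 points of the DKO clones lie on opposite sides of 0.

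The 4 pro-survival genes followed here had another makeup in MITFKO than in the lone wild-type library. BCL2L2, another pro-survival gene, at 58.9 CPM in wild-type SKMEL28, was left out because no length was taken for it. Summed per kilobase over BCL2, BCL2L1, MCL1 and BCL2A1, BCL2A1 made up 68.9% in the wild-type library and MCL1 22.2%. In MITFKO, BCL2A1 made up 44.8 ± 1.44% and MCL1 49.6 ± 1.58% (SD, n = 3). Clone 3 had 41.6 ± 1.46% BCL2A1 and 52.0 ± 1.20% MCL1, and clone 13 had 48.2 ± 3.38% and 46.5 ± 3.25%. In all 9 edited libraries BCL2A1 was at 40.0 to 52.1% and below the wild-type share. A375 had 1.36 ± 0.327% BCL2A1 and 83.2 ± 0.807% MCL1 in wild type, and 1.23 ± 0.283% and 84.2 ± 0.353% in TFE3KO. With the longest transcript as length the wild-type shares of SKMEL28 were 68.6% and 21.8%. BCL2 stayed at or under 0.971% of the sum in every group per kilobase of merged exon, and at or under 1.44% with the longest transcript.

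**Figure D3:**
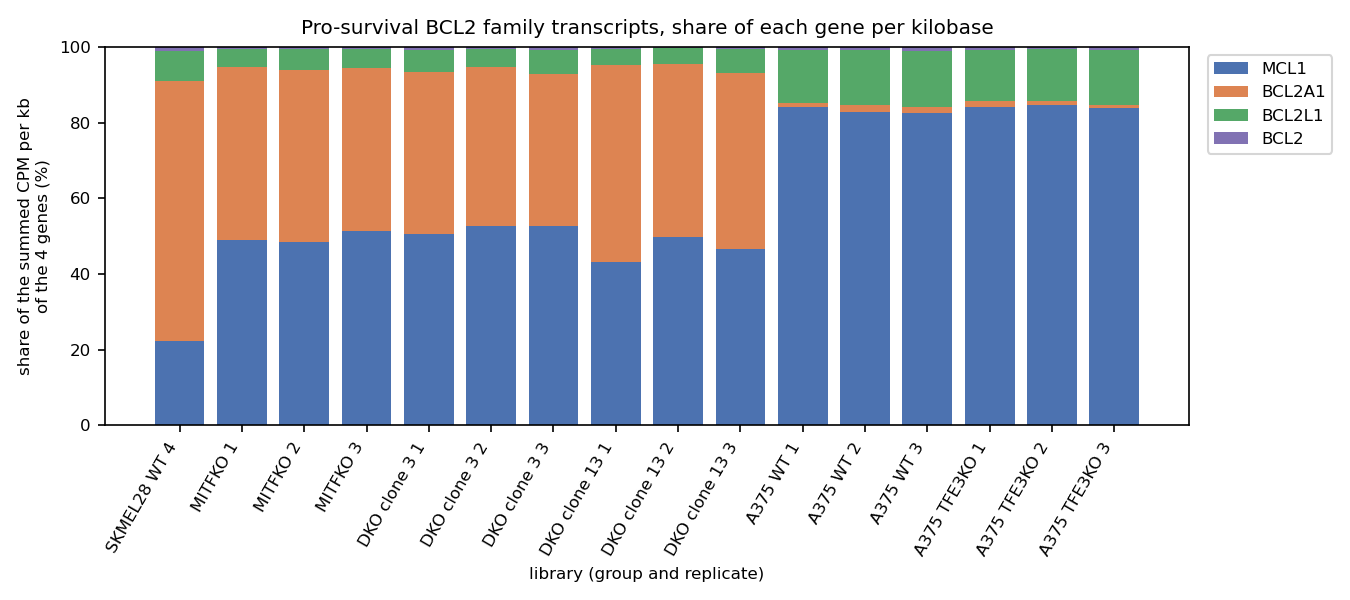
Share (%, stacked bars) of MCL1, BCL2A1, BCL2L1 and BCL2 in their summed CPM per kilobase of merged exon in each of the 16 libraries. BCL2A1 takes 68.9% of the bar in wild-type SKMEL28, 40.0 to 52.1% in the edited SKMEL28 libraries and under 2% in A375.

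BIRC7, BCL2A1 and BCL2 were set beside 14 other genes known as MITF targets, chiefly genes of pigment synthesis and melanosomes. Of these 14, 13 fell and 1, the receptor gene MET, rose (log2 change 0.44), with a median log2 change of -1.52, where the median of all genes tested was 0.01 and 23.4% of them were called lower and 25.2% higher. The fall of BIRC7 (-2.54) was larger than that median and those of BCL2 (-0.76) and BCL2A1 (-0.52) were smaller. MLANA, which encodes a melanosomal antigen, had the lowest value at -7.83, and TYR, the tyrosinase gene, fell by 0.23. In the mean of both DKO clones against MITFKO, 2 of the 14 rose and 7 fell with a median of -0.27 (20.4% of all genes called higher, 20.7% lower). None of the 3 survival genes was called in that mean, with log2 differences of 0.07 for BIRC7, -0.12 for BCL2A1 and -0.08 for BCL2. The mean joins unlike clones: BIRC7 was at -0.84 in clone 3 and 0.99 in clone 13, and BCL2A1 at -0.35 and 0.10. Without replicate 2 of both clones, BIRC7 (-0.22, adjusted p = 0.00762) and BCL2A1 (-0.16, adjusted p = 0.035) were called lower in edgeR.

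**Figure D4:**
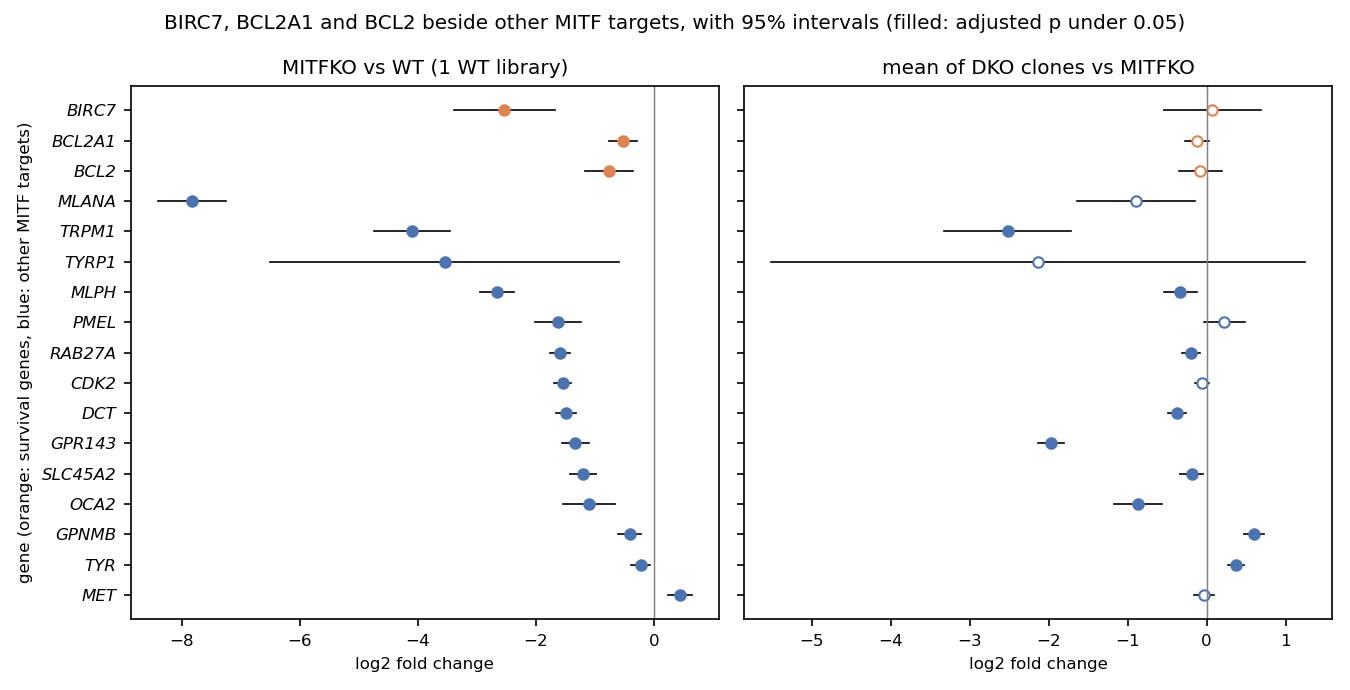
Log2 fold change (x axis, point) with its 95% interval (line) of BIRC7, BCL2A1 and BCL2 (orange) and of 14 other MITF targets (blue), in MITFKO against the lone wild-type library (left) and in the mean of both DKO clones against MITFKO (right), filled where the adjusted p is under 0.05; the x axes differ between panels. All 3 orange points are filled and lower on the left, and none is filled on the right.

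The second question is what the further TFE3 edit goes with when MITF has already been edited. BBC3 fell in both DKO clones, and it was the only 1 of the 10 genes called in each. In clone 3 against MITFKO 3 genes were called, 1 higher and 2 lower, where 35.9% of all genes were called (18.2% higher, 17.6% lower). The groups did not overlap for 5 of the 10 genes, against 50.9% of all genes, and without clone 3 replicate 1 only 1 gene was called. In clone 13 against MITFKO 3 genes were called, 1 higher and 2 lower, where 40.7% of all genes were called (20.5% higher, 20.2% lower), and 5 of 10 did not overlap, against 50.1% of all genes. For the mean of both clones 2 genes were lower and none higher, against 41.1% of all genes called (20.4% higher, 20.7% lower), and 1 of 10 did not overlap, against 30.3%. This count was 1 without MITFKO replicate 1 or 2 and 4 without clone 13 replicate 2. These comparisons share the 3 MITFKO libraries with each other and with the comparison above, so their values are given side by side.

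BBC3, whose protein binds every pro-survival member of the family, was at 12.2, 12.8 and 17.9 CPM in MITFKO, at 5.76, 11.3 and 6.26 CPM in clone 3 and at 5.38, 6.66 and 4.05 CPM in clone 13. All 6 DKO libraries were below all 3 MITFKO libraries, and replicate 2 was the highest of each clone. BBC3 fell by 0.87 in clone 3 (SE 0.247, adjusted p = 0.012) and by 1.41 in clone 13 (SE 0.254, adjusted p = 0.000362). In the mean of both clones it fell 2.21-fold, by 1.14 (SE 0.208, adjusted p = 0.000407). The call in clone 3 ended without clone 3 replicate 1 (-0.70, adjusted p = 0.0537), clone 3 replicate 3 (-0.74, adjusted p = 0.0561) or MITFKO replicate 3 (-0.68, adjusted p = 0.0584), and without replicate 2 of both clones it was -1.25 (adjusted p = 1.40e-07).

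PMAIP1, at 42.4, 41.3 and 34.6 CPM in MITFKO, was at 26.9, 25.5 and 31.2 CPM in clone 13 and fell there by 0.50 (SE 0.113, adjusted p = 0.00111). No clone 13 library reached the lowest MITFKO library. In clone 3 it was at 40.8, 30.1 and 35.7 CPM, which overlaps MITFKO, and the log2 difference of -0.15 was not called (95% interval -0.38 to 0.08). For the mean of both clones PMAIP1 fell by 0.33 (SE 0.0962, adjusted p = 0.0096), and this call ended without MITFKO replicate 1 (adjusted p = 0.0749) or replicate 2 (adjusted p = 0.0594). BCL2L11 rose in clone 3, from 51.3, 46.0 and 52.6 CPM to 63.8, 59.98 and 56.8 CPM, a log2 change of 0.27 (SE 0.0853, adjusted p = 0.0164) that was not called without clone 3 replicate 1 (adjusted p = 0.0896) or MITFKO replicate 2 (adjusted p = 0.119). In clone 13 it was at 59.5, 49.5 and 50.1 CPM and overlapped MITFKO. For the mean of both clones the difference of 0.18 had an adjusted p of 0.0604, and it was called without clone 13 replicate 2 (adjusted p = 0.0129), without clone 13 replicate 3 (adjusted p = 0.0427) or with DESeq2-type size factors in edgeR (adjusted p = 0.0485).

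The known MITF targets BIRC7 and BCL2A1 differed between the clones. BIRC7 was at 32.0, 33.7 and 35.8 CPM in MITFKO, at 15.8, 24.7 and 15.9 CPM in clone 3 and at 54.3, 95.7 and 51.6 CPM in clone 13. Clone 3 lay below and clone 13 above MITFKO with no overlap. Replicate 2 was the highest of each clone, at 1.56 and 1.81 times the mean of its partners. The summed melanocytic markers were above MITFKO (5585 to 5802 CPM) in both clones, at 6404 to 7174 CPM in clone 3 and 7285 to 8985 CPM in clone 13. Their part in these values was not tested. BIRC7 rose in clone 13 by 0.99 (SE 0.287, adjusted p = 0.0321), and the log2 difference in clone 3 was -0.84 (SE 0.310, adjusted p = 0.0799), which was not called. Without replicate 2 of both clones these values became 0.65 (adjusted p = 3.22e-10) and -1.09 (adjusted p = 6.40e-15). The call in clone 13 ended without any 1 of the MITFKO libraries, with adjusted p from 0.0723 to 0.0974, and with no filter on low counts (adjusted p = 0.0507), and that in clone 3 was made without clone 3 replicate 2 (adjusted p = 0.0494), in DESeq2 (adjusted p = 0.0256) and with only these groups in the model (adjusted p = 5.40e-06). BCL2A1 fell in clone 3 to 55.5, 58.3 and 53.3 CPM, by 0.35 (SE 0.0861, adjusted p = 0.00312), below all MITFKO libraries. In clone 13 it was at 82.2, 80.5 and 65.3 CPM, a log2 difference of 0.10 that was not called (95% interval -0.08 to 0.28), except without clone 13 replicate 3 (0.21, adjusted p = 0.0499).

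The other genes were not called in either clone. MCL1 was at 246, 273 and 264 CPM in clone 3 and at 255, 327 and 246 CPM in clone 13, against 285 to 300 CPM in MITFKO. Its log2 differences were -0.17 and -0.09, and replicate 2 of clone 13 was the only DKO library above the MITFKO range. Without replicate 2 of both clones MCL1 was lower in both, with log2 changes of -0.20 (adjusted p = 0.000335) and -0.22 (adjusted p = 8.14e-05). Without clone 13 replicate 2 alone it was lower in clone 13 (adjusted p = 0.000546) and in the mean of both clones (-0.20, adjusted p = 0.000136), and in clone 3 it was also called with no filter on low counts (adjusted p = 0.0198) or with only these groups in the model (adjusted p = 0.00387). BCL2 was at 10.4, 8.60 and 11.3 CPM in clone 3 and at 7.35, 7.16 and 7.52 CPM in clone 13, with all clone 13 libraries below the MITFKO range of 8.27 to 9.56 CPM (-0.31, adjusted p = 0.112). BCL2L1 ran from 17.2 to 23.3 CPM over both clones, against 19.0 to 23.6 CPM in MITFKO. BAX was at 39.9 to 52.1 CPM in both clones against 42.1 to 45.0 CPM in MITFKO, with 95% intervals of -0.11 to 0.27 in clone 3 and -0.18 to 0.20 in clone 13.

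Set directly against each other, clone 13 and clone 3 differed in 5 of the 10 genes, 2 higher and 3 lower in clone 13, where 27.6% of all genes were called (14.3% higher, 13.4% lower); the clones did not overlap for 4 of the 10, against 38.9% of all genes. BIRC7 was 3.57-fold higher in clone 13, a log2 difference of 1.84 (SE 0.304, adjusted p = 0.00503), and BCL2A1 was 1.36-fold higher, a log2 difference of 0.45 (SE 0.0861, adjusted p = 0.000471). BCL2 was lower in clone 13 (-0.46, SE 0.154, adjusted p = 0.0292), as were PMAIP1 (-0.35, SE 0.114, adjusted p = 0.0252) and BID (-0.28, 95% interval -0.49 to -0.07, adjusted p = 0.0401). BID was at 27.7, 26.3 and 24.5 CPM in clone 3 and at 21.0, 22.7 and 20.8 CPM in clone 13. The calls for BIRC7 and BCL2A1 held in all 12 alternatives, and those for BCL2, PMAIP1 and BID were lost in 6, 4 and 7 of 12, among them each fit without clone 3 replicate 1, where the adjusted p was 0.0933, 0.197 and 0.166. The count of 5 fell to 2 without that library and to 3 without clone 3 replicate 3, clone 13 replicate 1 or clone 13 replicate 3. BBC3 was not called (-0.54, adjusted p = 0.151), except without clone 13 replicate 2 (-0.73, adjusted p = 0.0475) or with no filter on low counts (adjusted p = 0.0212). BCL2L11 was called only without clone 13 replicate 1 (-0.27, adjusted p = 0.0285). The TFE3 transcript also differed between these clones, at 9.63 ± 1.85 CPM in clone 3 and 47.0 ± 2.98 CPM in clone 13 (SD, n = 3), and its part in these differences was not tested.

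Against the lone wild-type library the clones together had 7 of the 10 genes called, 2 higher and 5 lower, where 52.9% of all genes were called (26.5% higher, 26.4% lower). The wild-type library lay outside the range of the clones for 7 of the 10 genes, against 67.3% of all genes. This comparison shares the wild-type library with the first. BIRC7 was at 18.1% of wild type (log2 change -2.46, SE 0.308, adjusted p = 0.000489), BCL2A1 at 63.9%, BCL2 at 55.6% and BCL2L1 at 64.7%, and MCL1 was 2.18-fold higher (log2 change 1.12, SE 0.124, adjusted p = 1.16e-06). PMAIP1 was higher by 0.40 (SE 0.154, adjusted p = 0.0325) and BAX lower (-0.28, SE 0.114, adjusted p = 0.0416), and these were the weakest calls. That of PMAIP1 ended without clone 3 replicate 1 (adjusted p = 0.0597), without clone 13 replicate 3 (adjusted p = 0.0514) or with only these groups in the model (adjusted p = 0.0538), and that of BAX ended without clone 3 replicate 1 (adjusted p = 0.0726), clone 3 replicate 3 (adjusted p = 0.076) or clone 13 replicate 1 (adjusted p = 0.0635), in DESeq2 (adjusted p = 0.0588) and with only these groups (adjusted p = 0.0661). BBC3, at 8.65 CPM in wild type and 4.05 to 11.3 CPM in the clones, was not called (-0.42, adjusted p = 0.293), except without replicate 2 of clone 3 (-0.61, adjusted p = 0.0472) or of both clones (-0.70, adjusted p = 0.00421).

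In A375 the TFE3 edit was made with MITF unedited. Of 9 genes tested 4 fell and none rose, where 43.3% of the 14012 genes tested were called (21.3% higher, 22% lower). The groups did not overlap for 4 of the 9, against 50.9% of all genes, and the genes that fell were BID, PMAIP1, BCL2 and BAX. BIRC7 did not pass the filter on low counts there. The 6 melanocytic markers summed to 541 to 565 CPM in wild type and to 884 to 967 CPM in TFE3KO. They did not all rise: MITF, 1 of the 6, fell, and only 4 averaged at least 1 CPM in either group. Their part in the changes of these genes was not tested.

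BID was at 40.4, 41.3 and 40.1 CPM in A375 wild type and at 22.9, 23.2 and 24.8 CPM in TFE3KO. The groups lay far apart, and BID fell 1.72-fold, by 0.78 (SE 0.0758, adjusted p = 1.27e-12). PMAIP1 was at 48.4, 46.8 and 45.8 CPM in wild type and at 30.7, 30.6 and 31.0 CPM in TFE3KO, and fell 1.53-fold, by 0.61 (SE 0.0693, adjusted p = 1.46e-10). BAX went from 138, 135 and 136 CPM to 115, 105 and 106 CPM, a fall of 0.32 (SE 0.0446, adjusted p = 3.38e-08). BCL2 went from 16.5, 15.9 and 18.2 CPM to 13.5, 9.64 and 13.4 CPM, a fall of 0.47 (SE 0.119, adjusted p = 0.00106), with TFE3KO replicate 2 the lowest. The groups did not overlap for any of the 4 genes, as for 50.9% of all genes, and these 4 calls held in all 10 alternatives.

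The other A375 genes were not called, some with narrow intervals and some at levels too low to judge. MCL1, the most abundant of the 10 genes per kilobase, was at 532, 543 and 561 CPM in wild type and at 541, 522 and 522 CPM in TFE3KO (95% interval of the log2 difference -0.10 to 0.02). BCL2L1 was at 61.8, 66.9 and 71.4 CPM against 61.0, 58.8 and 63.1 CPM (-0.13, adjusted p = 0.0737), and it was called without wild-type replicate 1 (-0.18, adjusted p = 0.024) or TFE3KO replicate 3 (-0.15, adjusted p = 0.0419). BBC3 was at 9.92, 13.8 and 13.6 CPM against 12.1, 12.2 and 11.7 CPM, and BCL2L11 at 12.7, 8.81 and 10.9 CPM against 10.8, 12.5 and 10.97 CPM, with overlap in both genes. BCL2A1 was at 1.69, 2.88 and 2.57 CPM against 2.52, 2.14 and 1.52 CPM, and its interval of -0.79 to 0.42 does not exclude a change of the size seen in SKMEL28. BIRC7 had 0, 0 and 3 counts in wild type and 0, 5 and 4 in TFE3KO.

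Whether the TFE3 effect differed between the lines was tested directly, as the mean change of both DKO clones from MITFKO minus the change in A375. Of the 10 genes 3 differed, 2 higher and 1 lower in SKMEL28, where 37.7% of the 15093 genes tested were called (18.5% higher, 19.3% lower). BBC3 was lower by -1.09 (SE 0.283, adjusted p = 0.00428), since it fell in SKMEL28 and had a log2 difference of -0.05 in A375. BID differed by 0.77 (SE 0.114, adjusted p = 3.59e-06) and BAX by 0.38 (SE 0.0948, adjusted p = 0.00214), since both fell in A375 and had differences of -0.02 and 0.05 in SKMEL28. For PMAIP1, which fell in A375 and in the mean of the clones, the difference of 0.30 was not called (adjusted p = 0.0728), but it was called without replicate 2 of clone 3 (adjusted p = 0.0234), of clone 13 (adjusted p = 0.0191) or of both (0.39, adjusted p = 0.00286). Without clone 13 replicate 2 the count of called genes was 5, with PMAIP1 and MCL1 (-0.14, adjusted p = 0.0398) added, and without replicate 2 of both clones BCL2 was called as well (0.47, adjusted p = 0.0376). With all libraries the 95% intervals were -0.28 to 0.13 for MCL1 and -0.21 to 0.33 for BCL2L1, and that of BIRC7 (-5.77 to 3.32) says nothing, because A375 has almost no BIRC7 reads. The lines also differ in medium and in MITF editing, which cannot be told apart from line here.

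The unedited lines themselves differed in 8 of the 10 genes, 5 higher and 3 lower in A375, where 67.6% of the 16248 genes tested were called (34.1% higher, 33.6% lower). None of the 10 overlapped, against 89.2% of all genes without overlap. MCL1 was 4.43-fold higher in A375 (log2 difference 2.15, SE 0.117, adjusted p = 2.25e-13), BAX 2.49-fold, BCL2L1 2.16-fold, PMAIP1 1.97-fold and BID 1.71-fold. BCL2A1 was 42.8-fold lower (log2 difference -5.42, SE 0.157, adjusted p = 1.03e-21) and BCL2L11 4.99-fold lower (-2.32, SE 0.133, adjusted p = 6.40e-16). BIRC7, with 4797 counts in the SKMEL28 library and 3 over the A375 wild-type libraries, was 4254 times as high in SKMEL28 (95% counting interval 1455 to 20633, which covers counting error only). The melanocytic markers summed to 541 to 565 CPM in A375 wild type against 13702 CPM in SKMEL28 wild type, and MITF itself was at 30.9 to 38.9 CPM against 539 CPM. The part of lineage markers in these differences was not tested, and line cannot be told apart from medium or from the alignment input number. BCL2 (0.12) and BBC3 (0.52) were not called.

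Of 15 transcription factors followed beside these genes, MITF and TFE3 among them, 8 rose and 1 fell in MITFKO, where 48.6% of all genes were called. In clone 3 against MITFKO 4 rose and 5 fell (35.9% of all genes called), in clone 13 3 rose and 5 fell (40.7%), and in A375 TFE3KO 5 rose and 5 fell (43.3%). ATF4 was at 157 CPM in wild-type SKMEL28, 652 ± 25.7 in MITFKO, 378 ± 14.5 in clone 3 and 390 ± 8.60 CPM in clone 13 (SD, n = 3). DDIT3, which encodes the stress factor CHOP, was at 16.8, 86.8 ± 5.63, 22.7 ± 0.620 and 17.7 ± 1.05 CPM in the same order. Both rose in MITFKO (log2 changes 2.05 and 2.37) and fell in clone 3 (-0.79 and -1.93) and clone 13 (-0.74 and -2.29), and their part in the values of BBC3 and PMAIP1 was not tested. In A375 TFE3KO ATF4 rose by 0.42 and DDIT3 was not called (-0.10, adjusted p = 0.568). FOXO3, a known activator of BCL2L11 and BBC3, fell in A375 TFE3KO (-0.51), where neither gene was called. MYC was not called in MITFKO (-0.04), in either clone (-0.11 and 0.12) or in A375 TFE3KO (-0.11).

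Another 47 genes of the apoptosis pathway were followed in the same fits. In MITFKO 8 of 37 tested rose and 6 fell (median log2 change 0.08), where 25.2% of all genes were called higher and 23.4% lower; the counts by role are read against the same shares. Those named by size were the death receptor genes TNFRSF1A, from 67.7 to 178 CPM (log2 change 1.40, adjusted p = 9.19e-12), and TNFRSF10B, from 78.4 to 175 CPM (1.16), the inhibitor of apoptosis BIRC2, from 56.3 to 119 CPM (1.08), the mitotic and anti-apoptotic gene BIRC5 (survivin), from 154 to 63.2 CPM (-1.28, adjusted p = 4.50e-10), and the BH3-only gene HRK, from 17.5 to 8.66 CPM (adjusted p = 0.000695). Among the 4 inhibitors of apoptosis tested 2 rose and 1 fell, and of 6 death receptor and adaptor genes 3 rose and 1 fell. Of 9 apoptosome and caspase genes none rose and 2 fell, CYCS (cytochrome c, -0.81) and CASP8 (-0.43). Of the effectors beside BAX, neither BAK1 nor BOK was called.

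In clone 3 against MITFKO 10 of these 37 genes rose and 5 fell (35.9% of all genes called). In clone 13 8 rose and 9 fell (40.7%), and in the mean of both clones 10 rose and 9 fell (41.1%). BNIP3, a mitophagy receptor with a weak BH3-like motif, rose in each clone from 77.2 CPM in MITFKO. Clone 3 had 195 CPM, a log2 change of 1.33 (adjusted p = 0.00165), while clone 13 reached 314 CPM, a log2 change of 2.02 (adjusted p = 0.000159). Its relative BNIP3L rose in clone 13 from 109 to 258 CPM (1.25, adjusted p = 0.000933). Replicate 2 of clone 13 was the highest for both, at 1.49 and 1.48 times the mean of its partners. In clone 3 replicate 2 was at 1.28 and 1.21 times the mean of its partners. BIRC5 rose in clone 3 to 135 CPM (1.09, adjusted p = 4.73e-10). The clones differed in 14 of the 37 genes, 4 higher and 10 lower in clone 13, where 27.6% of all genes were called, but only in 7 without clone 3 replicate 1. Against wild type 11 rose and 8 fell in the clones together, where 52.9% of all genes were called. The genes of that comparison named by size were HRK (-1.86), BNIP3 (1.71), BNIP3L (1.70), TNFRSF1A (1.44), the adaptor TRADD (1.24) and BIRC2 (1.16).

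In A375 TFE3KO 8 of 38 rose and 9 fell, where 43.3% of all genes were called (21.3% higher, 22% lower). Only BIRC3, an inhibitor of apoptosis that acts in NF-kappaB signalling, passed the size rule, from 36.8 to 11.3 CPM (-1.70, SE 0.0901, adjusted p = 2.71e-22). Of 5 inhibitors of apoptosis tested there 4 fell. The difference between the lines was called for 8 genes in each direction of 39 (37.7% of all genes called). Between the unedited lines 18 of 42 were higher and 12 lower in A375 (67.6% of all genes called). BIRC3 and TNFRSF10A had 0 counts in the SKMEL28 wild-type library and were at least 299-fold and 411-fold higher in A375, against a floor of 3 counts, and FAS was at 21.7 CPM against 0.164 CPM. HRK was 378 times as high in SKMEL28 (95% counting interval 128 to 1839, on 3 counts in A375). The others named by size were BIRC2, TNFRSF1A and XIAP, higher in A375 by 1.46, 1.25 and 1.02, and BCL2L2, BOK, BCL2L13, BNIP3L, CYCS, CASP8, CASP9 and CFLAR, lower by log2 differences of -1.04 for CASP9 to -2.11 for CFLAR.

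**Figure D5:**
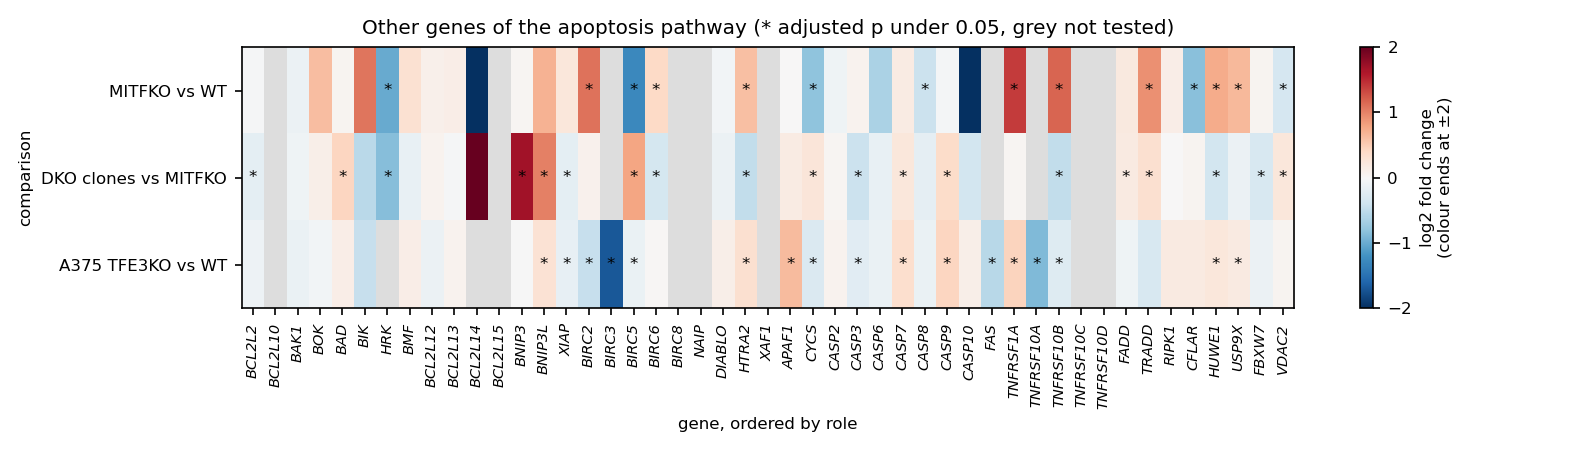
Log2 fold change (colour, ends at ±2) of 47 further apoptosis genes (columns, ordered by role) in MITFKO against wild-type SKMEL28, the mean of both DKO clones against MITFKO and A375 TFE3KO against wild type (rows); a star marks an adjusted p under 0.05 and grey a gene not tested. BIRC3 has the darkest blue starred cell of the A375 row (-1.70), and BNIP3 (1.68) the darkest red starred cell of the DKO row.

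The genes with the profile most like BCL2A1 over the 16 libraries, by Pearson's r of log2(CPM + 0.5), were TDRP (0.997), CELF2 (0.995) and LRRC61 (0.995). Those most like BIRC7 were PRUNE2 (0.996), LINC01918 (0.996) and BHLHE41 (0.993), and those most like BCL2 were NOP16 (0.953), FGFR1OP (0.951) and BAG2 (0.943). These values are descriptions, and for BCL2A1 and BIRC7 the 6 A375 libraries lie far below the 10 SKMEL28 libraries in every such profile.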

How the data were processed

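Bulk RNA-seq was analysed in 16 libraries of 6 groups. What the authors deposited are raw read counts, whole numbers per gene symbol. Per the submitters' processing notes, the authors used STAR, featureCounts, DESeq2 and the build hg19. The sources used here do not give versions, the annotation release, the strand setting or the handling of multiply mapped reads, so BCL2L1 and BCL2L11, whose exons overlap genes on the opposite strand (ABALON and MIR4435-2HG), and MCL1, overlapped on the same strand by ADAMTSL4-AS1, are uncertain to that extent.

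Counts were tested here with edgeR 4.0.16 in R 4.3.3: filterByExpr by group, TMM scaling, robust quasi-likelihood F-test, p-values adjusted by Benjamini-Hochberg across every gene tested, and a call at an adjusted p under 0.05. The models held the 10 SKMEL28 libraries, the 6 A375 libraries, 15 libraries for the difference between lines, and all 16 for the wild types. The code was tested on simulated data. Alternatives used DESeq2 1.42.0, other size factors, no filter, only the groups compared, and left-out libraries. Lengths came from GENCODE release 29, used for lengths only, and promoter letters from RefSeq. Counting intervals are at the 95% level. Replicate numbers were not used to pair samples in the fits reported. Deviations of same-numbered libraries correlated from -0.0401 to 0.166. Between the DKO clones these values were 0.0698, 0.166 and 0.0444 for replicates 1, 2 and 3. Replicate 2 of either clone correlated at -0.116 to -0.0798 with the other numbers of the other clone. Whether the clones share an effect of the replicate was not tested.

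The genes and gene lists were chosen with earlier results of these data known. Named genes were the 10 genes, MITF, TFE3, the regulators ATF4, DDIT3, FOXO3 and MYC, and wider pathway genes called with a log2 change of at least 1, a mean of at least 5 CPM in the higher group and no overlap. Others named in the text (MLANA, MET, TYR, CYCS, CASP8, BAK1, BOK, FAS and the MCL1 partner genes where outside that rule) were chosen after their values were seen.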

Additional observations from a re-analysis of the deposited data

Results flagged for a closer look

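The effect of the TFE3 edit differed between the lines, by an interaction test over all genes, for 3 of the 10 genes: BBC3 (-1.09 in SKMEL28 minus A375, log2 scale), BID (0.77) and BAX (0.38). The change from MITFKO differed between DKO clones 13 and 3, by the test of clone 13 against clone 3, for 5 genes: BIRC7 (1.84), BCL2A1 (0.45), BCL2 (-0.46), PMAIP1 (-0.35) and BID (-0.28). The clones are 1 line each, so a difference between clones and an effect of the remaining TFE3 transcript cannot be told apart.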

How the results depend on the processing

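Of 42 calls over the 10 genes and 9 comparisons, 32 held in every alternative fit run for them. Many of these are calls against the lone wild-type SKMEL28 library, which no alternative could leave out. How far they depend on that library was therefore not tested. Of 1040 single-gene alternatives 965 kept the call or the absence of one, 38 lost a call, 36 gained a call and 1 reversed. The median change of all genes lay between -0.04 and 0.08 over all fits, and no alternative moved it by over 0.1. The size factors used all set most genes near no change, so this median cannot show a shift of all genes. The reversed value was BIRC7 in the mean of both clones against MITFKO, -0.22 (adjusted p = 0.00762) without replicate 2 of both clones against 0.07 with them. That setting also gave 5 genes called in clone 3 against MITFKO (3 in the fit reported), 6 in the mean of both clones (2) and 6 in the difference between lines (3). With only the compared groups in the model 5 were called in clone 3 and 3 in clone 13 against clone 3 (5 reported). Leaving out 1 library at a time gave 1 to 4 genes in clone 3, 1 to 4 in the mean of both clones, 2 to 4 in clone 13 against clone 3 and 3 to 5 in the difference between lines. The lowest and highest counts came without clone 3 replicate 1 (1 in clone 3, 2 in clone 13 against clone 3), MITFKO replicate 1 or 2 (1 in the mean) and clone 13 replicate 2 (4 in the mean, 5 in the difference). The cause was not tested. With the replicate number as a block, which the fits reported did not use, 5 genes were called in clone 3 against MITFKO. BIRC7 (-0.89, adjusted p = 0.00143) and MCL1 (-0.18, adjusted p = 0.0364) were gained there. BCL2L11 was gained in the mean of both clones (0.17, adjusted p = 0.0373), and no other call changed. No paired analysis was possible for comparisons with the SKMEL28 wild type because its number 4 occurs in no other group. The lone wild-type library, the few clones (1 MITFKO line, 2 DKO clones) and the few reads of BCL2A1 and BIRC7 in A375 limit these comparisons.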

Other observations

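Genes whose proteins are known to set the stability of MCL1 or BAK1 protein were also measured, and MCL1 rose as a transcript in MITFKO. HUWE1, a ubiquitin ligase of MCL1, rose from 258 to 433 CPM in MITFKO (log2 change 0.75, adjusted p = 3.49e-08 in edgeR) and fell to 334 CPM in each DKO clone (log2 changes -0.37 and -0.38). USP9X, which removes ubiquitin from MCL1, rose from 132 to 206 CPM in MITFKO (0.65, adjusted p = 1.03e-05) and was not called in either clone against MITFKO. FBXW7, another ligase of MCL1, was not called in MITFKO (0.05) or clone 3 (-0.09) and fell in clone 13 (-0.57, adjusted p = 0.00358). VDAC2, which holds BAK1 at the mitochondrial membrane, fell in MITFKO from 198 to 156 CPM (-0.34) and rose in clone 3 (0.16) and clone 13 (0.29). In A375 TFE3KO, HUWE1 rose by 0.23 and USP9X by 0.18, and MCL1 was not called. These comparisons share the MITFKO libraries, and transcript levels do not give protein levels.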
